A study of Mus musculus with 10 samples.

Results

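Cadherins and protocadherins are calcium-dependent adhesion proteins of the cell surface, and the 92 protein-coding genes of these families were compared between dorsal and ventral mossy cell-enriched translatomes of the mouse hippocampus. The members are the Ensembl genes among the 54838 counted whose symbol begins with Cdh or Pcdh followed by a digit, or with Pcdha, Pcdhb or Pcdhg. They comprise 18 classical cadherins, 5 other cadherins, 9 delta protocadherins, 3 other non-clustered protocadherins, and 14 alpha, 22 beta and 21 gamma protocadherins of the clustered group. The libraries were 5 Dorsal and 5 Ventral TRAP precipitates, in which EGFP-tagged ribosomes and their bound RNA are pulled down. All came from young adult C57BL/6 mice with the genotype Drd2-Cre;Eef1a1LSL.eGFPL10a/+, without further treatment, and each library pooled hippocampal tissue of several mice. The hippocampi of one set of mice were divided to give both groups, and whether libraries of the same number share mice is not given in the sources used here. Both groups carry the same Cre driver and tagged L10a allele and differ in the part of the hippocampus dissected. Drd2-Cre marks most hilar mossy cells, the excitatory neurons of the dentate hilus, and also interneurons and neurons of the ventral subiculum. The study's limitations call these interneurons a substantial subset, and the ventral subiculum was cut away, though some may remain. The precipitate is therefore enriched and not pure.

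Classical cadherins bind the same or a related cadherin on the opposing membrane and attach to actin through catenins. In the hippocampus they are known for sorting axons to target layers and for holding synapses together. Delta protocadherins adhere more weakly and signal to the actin cytoskeleton, whereas the clustered protocadherins are a recognition code: each neuron uses a small set of isoforms, chosen by promoter choice, by which its own branches are told from those of other neurons.

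The clusters lie in a row on chromosome 18 of GRCm38, on the plus strand, with the alpha genes from 36930184 to 37187661, the beta genes from 37264938 to 37524479 and the gamma genes from 37661793 to 37841873. Each alpha or gamma transcript joins 1 variable exon to constant exons that all members of its cluster carry, while beta genes are single exons. A read on a constant exon belongs to many annotated genes, and the counting program sets such reads aside as ambiguous. Of the exonic length, 48.6% to 93.0% was shared with another gene for alpha members and 31.5% to 100% for gamma members, but 19 of 22 beta members shared none. Alpha and gamma counts therefore come mostly from variable exons, and levels per length use unshared kilobases only. Pcdhga10 has no unshared base in the annotation and had 0 counts in every library. The beta and gamma variable exons are close paralogs, so reads from near-identical stretches may have been split or dropped, and their values are uncertain to that extent.

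Each library held between 11138676 and 20594364 counts on genes, and 3 counts correspond to 0.141 to 0.282 CPM (counts scaled to the library's size by the trimmed mean of M values), a floor that covers counting error only. The share of read pairs outside annotated genes was 27.0 ± 5.09% (SD, n = 5) in Dorsal and 14.4 ± 2.997% in Ventral libraries (two-sided exact permutation test, p = 0.00794, the smallest this design allows). The ambiguous share was 6.42 ± 0.553% in Dorsal and 7.66 ± 0.989% in Ventral libraries (two-sided exact permutation test, p = 0.0476, and 0.0635 to 0.0952 without any one of Dorsal replicates 1, 3, 4 or 5 or Ventral replicates 2, 4 or 5), but 8.83 ± 0.878% and 8.93 ± 1.05% when taken of read pairs on genes plus ambiguous ones (p = 0.802, same exact test). The mossy cell marker Drd2 ranged from 23.3 to 31.7 CPM (Dorsal) and from 17.5 to 27.9 CPM (Ventral), and 9 of 10 mossy cell markers passed the expression filter. Markers of other cells moved too: of 7 astrocyte markers 4 were dorsal- and 1 was ventral-enriched, and their summed level was 1939 to 2216 CPM in Dorsal against 838 to 1417 CPM in Ventral precipitates. Of 7 oligodendrocyte markers 4 were dorsal-enriched, with sums of 2358 to 2759 CPM and 878 to 1572 CPM. All markers of both lists passed the filter and none was at 0. Of 9 interneuron markers 3 were ventral-enriched, with sums of 3359 to 4496 CPM (Dorsal) and 4061 to 5349 CPM (Ventral). Gad2, not called, held most of both sums, with means of 2848 CPM (Dorsal) and 3168 CPM (Ventral). The highest mossy cell marker, Gria2, averaged 1141 CPM (Dorsal) and 649 CPM (Ventral). Of the mossy cell markers 2 were dorsal- and 3 ventral-enriched, of 8 markers of CA1 and CA3 pyramidal cells 2 and 1, and of 6 of meninges and mural cells 2 and 1. Dorsal-enriched were also 2 of 7 granule cell, 3 of 6 choroid plexus and ependyma and 1 of 7 microglia markers. Of 7 endothelial markers 0 were called by edgeR, and 1 leaned ventral at an unadjusted p below 0.05. The summed pyramidal cell markers, at 523 to 602 CPM in Dorsal and 467 to 501 CPM in Ventral libraries, did not overlap. Their part in the results below was not tested.

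Replicates 4 and 5 of both groups stood apart from the other libraries. Over 9120 genes with at least 50 counts in every library, the SD of the log2 difference was 0.191 between Dorsal replicates 4 and 5 and 0.230 between Ventral replicates 4 and 5, against 0.502 to 0.658 between pairs of replicates 1 to 3 of a group. Each of these 4 libraries also lay near the mean of replicates 1 to 3 of its own group, with SDs of 0.226 to 0.274, whereas any of replicates 1 to 3 differed from the mean of the other 2 by 0.447 to 0.581. Of the 77 tested members, 56 to 61 lay between the lowest and highest of replicates 1 to 3 in each of these 4 libraries. The labels name all 10 as separate samples, and the study's methods describe separate pools of mice. How replicates 4 and 5 came to lie so close was not tested, and if they are not independent pools the p-values of all 10 libraries are too small. Counts of members, partners and markers called are therefore also given for replicates 1 to 3 alone.

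Of the 92 members, 77 exceeded 1 CPM in at least 2 libraries and were tested, and 19 of these were called: 14 dorsal-enriched and 5 ventral-enriched. A call needed an adjusted p below 0.05 (edgeR quasi-likelihood test, Benjamini-Hochberg over 16806 genes) and a log2 ratio of mean CPM + 1 above 0.58 in size. Of the 77, 6 exceeded 1 CPM in libraries of 1 group only, and 3 of these were called (Pcdhgb4 and Pcdhgb7 dorsal, Pcdha2 ventral). Such a gene passed the filter only through the group where it is high, so its call is not independent of the filter. The other 71 tested members held 12 dorsal and 4 ventral calls. The called shares were 18.2% dorsal and 6.49% ventral, against backgrounds of 15.7% and 9.85% of all genes tested, and against 11.4% and 10.3% of the 13544 protein-coding genes among them. The median log2 fold change of dorsal over ventral was 0.05 over the 77 members and -0.0044 over all genes tested. Dorsal and Ventral libraries did not overlap for 11 of the 77 (14.3%), against 18.2% of all genes. With replicates 1 to 3 alone, 0 of the 74 members tested there were called in either direction by edgeR, against 0.72% and 0.312% of 15689 genes, and 6 dorsal- and 1 ventral-leaning members had an unadjusted p below 0.05. All 17 called members that could be tested there kept their direction, with adjusted p from 0.0580 to 0.610 in edgeR. These libraries are part of the 10 that gave the calls, so the shared direction is not independent support. Replicates 3 to 5 alone, a fit of the same size, called 19 dorsal- and 8 ventral-enriched members, against 18.6% and 14.0% of 16003 genes. On all 10 libraries, DESeq2 called 17 and 5 members (backgrounds 14.8% and 9.19%), edgeR with the dispersions of its version 3 called 12 and 4 (13.2% and 8.38%), the replicate block 15 and 5 (15.8% and 9.95%), and GC and length offsets 14 and 5 (14.2% and 10.5%). In pooled tissue, fewer cells of a type and less RNA per cell cannot be told apart.

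**Figure D1:**
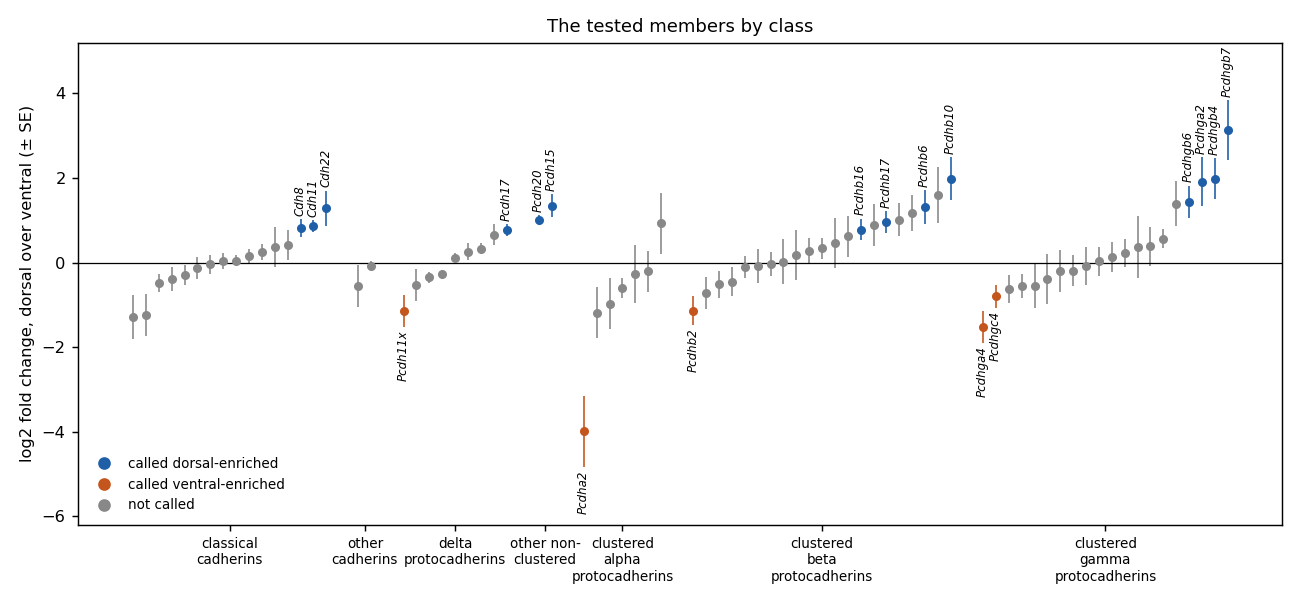
Log2 fold change of dorsal over ventral (vertical axis, points with ± SE from edgeR's quasi-likelihood fit on 5 against 5 libraries) for the 77 tested members, sorted within each class along the horizontal axis. Blue points are the 14 dorsal-enriched and orange points the 5 ventral-enriched members, and members of opposite sign occur within most classes.

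By class, 3 of 16 tested classical cadherins passed as dorsal-enriched and 0 as ventral-enriched in edgeR (median log2 fold change 0.04; 3 leaned ventral at an unadjusted p below 0.05, and 0 were called so by DESeq2). Of 9 delta protocadherins 1 was dorsal-enriched and 1 ventral-enriched (median 0.10). Both tested members of the other non-clustered protocadherins were dorsal-enriched (median 1.17), and neither of the 2 tested other cadherins was called (median -0.31). Of the clustered protocadherins, 0 of 7 alpha members were dorsal-enriched by edgeR or DESeq2, with 0 at an unadjusted p below 0.05, and 1 was ventral-enriched (median -0.60). The beta members had 4 dorsal- and 1 ventral-enriched of 21 (median 0.34), and the gamma members 4 and 2 of 20 (median 0.08).

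The promoters of called members outside the clusters are shown for the 4 genes whose RefSeq start also lies within an annotated transcript of the gene: Cdh8, Cdh22, Pcdh15 and Pcdh17, all dorsal-enriched. Each run is the 150 bases before the start in RefSeq (GRCm38), 5′ to 3′ on the gene's strand. Capitals mark matches on either strand to 4 letter strings. These are the TATA-type element TATAAA, the promoter element CCAAT, the GC box GGGCGG and the E-box CACGTG.
Cdh8, chr8:99416472-99416621, minus strand: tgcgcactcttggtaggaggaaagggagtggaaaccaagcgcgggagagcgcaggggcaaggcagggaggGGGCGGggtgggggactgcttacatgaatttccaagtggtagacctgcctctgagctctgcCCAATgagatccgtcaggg
Cdh22, chr2:165234738-165234887, minus strand: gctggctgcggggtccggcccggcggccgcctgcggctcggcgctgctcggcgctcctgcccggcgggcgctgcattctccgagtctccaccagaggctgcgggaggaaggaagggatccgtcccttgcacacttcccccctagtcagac
Pcdh15, chr10:73821717-73821866, plus strand: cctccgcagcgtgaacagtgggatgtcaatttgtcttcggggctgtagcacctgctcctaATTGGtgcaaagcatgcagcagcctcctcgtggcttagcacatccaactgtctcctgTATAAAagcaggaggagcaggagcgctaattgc
Pcdh17, chr14:84443413-84443562, plus strand: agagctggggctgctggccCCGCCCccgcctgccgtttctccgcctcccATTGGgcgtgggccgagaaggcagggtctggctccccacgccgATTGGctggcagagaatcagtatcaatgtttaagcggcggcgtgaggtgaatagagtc
Cdh8 and Pcdh17 each held CCAAT and a GC box, Pcdh15 held TATAAA and CCAAT, and Cdh22, with a GC content of 73.3%, held none of the 4 letter strings. The 4 runs thus shared no single one of these strings. Part of the Cdh22 run lies inside the annotated gene, which reaches to 165234853. The whole Pcdh15 run lies inside its gene, which begins at 73099342. Other starts of these genes were not examined. Over 32851 RefSeq promoters of the same length, 7.57% held TATAAA, 24.5% CCAAT, 28.6% GGGCGG and 4.30% CACGTG, and a match is a description of the letters, not a binding site.

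Among the classical cadherins, those called were 3 of the 13 type II members, the group that in the brain marks particular nuclei and layers. Cdh11 (chromosome 8, 102632095 to 102785642), which binds its own kind across the cleft, was at 89.7, 67.2, 102, 98.0 and 98.6 CPM in Dorsal replicates 1 to 5 and at 60.3, 53.6, 46.5, 48.2 and 43.2 CPM in Ventral replicates 1 to 5. Every Dorsal library was above every Ventral one, and the log2 fold change was 0.86 ± 0.14 (SE; edgeR adjusted p = 0.000643). With replicates 1 to 3 alone it was 0.70 (edgeR adjusted p = 0.132).

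Cdh8, another type II cadherin found at synapses, was the highest classical cadherin per length, at 12.4 CPM per kilobase. Its Dorsal libraries were at 93.7, 94.2, 148, 126 and 150 CPM and its Ventral libraries at 112, 54.7, 52.9, 69.6 and 55.2 CPM. Ventral replicate 1 lay within the Dorsal range and the other Ventral libraries below it, for a log2 fold change of 0.82 ± 0.21 (edgeR adjusted p = 0.0103). With offsets for GC content and length it was 0.54 and no longer called (edgeR adjusted p = 0.0641).

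Cdh22, a low type II cadherin at 1.07 CPM per kilobase, was at 1.41, 5.51, 9.18, 4.86 and 6.27 CPM in Dorsal and 2.27, 4.39, 2.53, 2.02 and 1.23 CPM in Ventral libraries. The groups overlapped through Dorsal replicate 1, which was under most Ventral libraries. The log2 fold change was 1.28 ± 0.42 (edgeR adjusted p = 0.0300), and the call was lost without any one of Dorsal replicates 3 or 5 or Ventral replicates 1, 4 or 5 (edgeR adjusted p from 0.0525 to 0.0904). It was also lost with the dispersions of edgeR 3 (edgeR adjusted p = 0.0804).

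The remaining classical cadherins were not called. Cdh9, the type II cadherin known for its place at synapses between granule cell axons and CA3 cells, was second per length at 10.8 CPM per kilobase. It was at 33.7, 49.0, 35.4, 33.6 and 39.8 CPM in Dorsal and 25.4, 45.6, 39.2, 25.3 and 30.0 CPM in Ventral libraries, which overlapped (log2 fold change 0.24 ± 0.18, edgeR adjusted p = 0.324). The type I members bind most strongly, and among them Cdh2, or N-cadherin, led at 4.62 CPM per kilobase. Cdh2 was at 40.003, 38.0, 33.8, 38.1 and 40.3 CPM in Dorsal and 39.98, 37.8, 29.6, 37.7 and 37.7 CPM in Ventral libraries, close in every library but Ventral replicate 3. The fold change on the log2 scale was 0.05 ± 0.12 (edgeR adjusted p = 0.797) and turned to -0.10 with the GC and length offsets.

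Cdh4, or R-cadherin, was next of type I at 1.03 CPM per kilobase. It was at 4.32, 6.94, 6.60, 6.53 and 6.59 CPM in Dorsal and 9.97, 9.93, 6.32, 8.46 and 8.95 CPM in Ventral libraries, which overlapped only through Ventral replicate 3 (log2 fold change -0.48 ± 0.21, edgeR adjusted p = 0.0940). Cdh1 and Cdh3, the E- and P-cadherins of epithelia, did not pass the filter, with at most 0.590 and 0.157 CPM in any library.

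Of the other cadherins, Cdh13, or T-cadherin, which is held by a lipid anchor and lacks the cytoplasmic tail that binds catenins, was at 4.59 CPM per kilobase. Its Dorsal libraries were at 45.9, 53.5, 54.2, 49.0 and 48.2 CPM and its Ventral libraries at 48.0, 59.1, 46.2, 55.4 and 55.5 CPM. They overlapped throughout (log2 fold change -0.07 ± 0.12, edgeR adjusted p = 0.661). Cdh23, the partner of Pcdh15 in the tip link of hair cells, was at 0.195 to 1.02 CPM in Dorsal and 0.613 to 1.41 CPM in Ventral libraries, and did not pass the test (log2 fold change -0.56 ± 0.49, edgeR adjusted p = 0.402). Cdh16, Cdh17 and Cdh26 did not pass the filter.

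**Figure D2:**
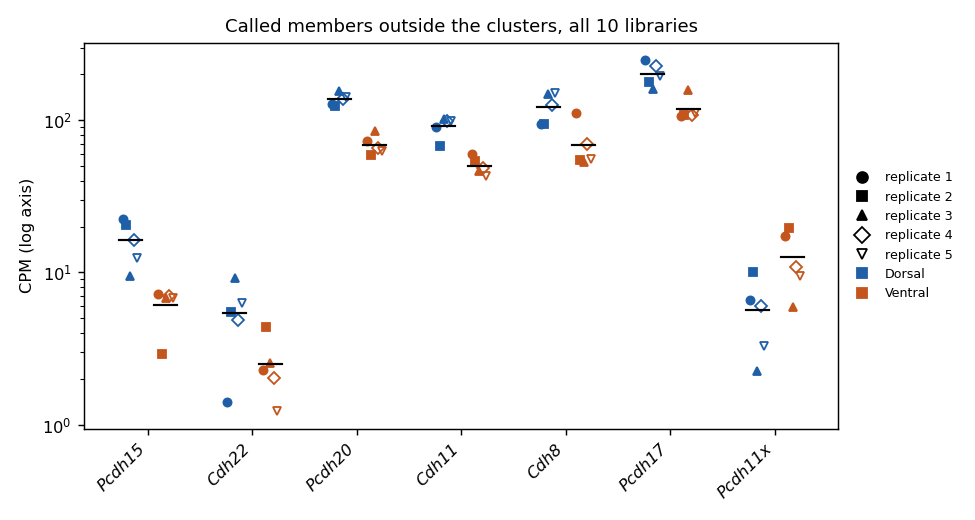
CPM on a log axis (vertical) of the 7 called members outside the clusters in each of the 10 libraries, Dorsal in blue and Ventral in orange, with black bars for the group means and open symbols for replicates 4 and 5. Cdh11, Pcdh15, Pcdh17 and Pcdh20 show no overlap between the groups, and the other 3 members overlap.

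The member with the lowest adjusted p was Pcdh20, a non-clustered protocadherin on chromosome 14 (88464743 to 88471396) and at 18.8 CPM per kilobase the second highest member per length. It was at 128, 123, 156, 138 and 143 CPM in Dorsal and 73.2, 59.1, 84.4, 65.4 and 62.9 CPM in Ventral libraries. The lowest Dorsal library was well above the highest Ventral one, and the log2 fold change was 0.999 ± 0.12 (edgeR adjusted p = 8.07e-05). With replicates 1 to 3 alone it was 0.93 (edgeR adjusted p = 0.0580), the lowest p among the called members there.

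Pcdh15, known as the other part of the hair cell tip link, was at 22.4, 20.4, 9.52, 16.2 and 12.5 CPM in Dorsal and 7.20, 2.90, 6.74, 7.01 and 6.79 CPM in Ventral libraries. The groups did not overlap, and the log2 fold change was 1.35 ± 0.27 (edgeR adjusted p = 0.00263), or 1.57 with replicates 1 to 3 alone (edgeR adjusted p = 0.109). Per length it was low, at 0.470 CPM per kilobase. Pcdh15 stands among genes that oligodendrocyte precursors are also known to express, and the oligodendrocyte marker sums given above were higher in Dorsal libraries. Their part in this difference was not tested. Pcdh12, an endothelial protocadherin, did not pass the filter.

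Several delta-2 protocadherins recruit the actin regulator WAVE to cell contacts, and Pcdh17, known for the assembly of synapses in restricted brain zones, was the only one called. It was at 248, 178, 161, 225 and 194 CPM in Dorsal and 106, 109, 159, 108 and 111 CPM in Ventral libraries. The groups did not overlap, but Dorsal replicate 3 and Ventral replicate 3 lay side by side. The log2 fold change was 0.77 ± 0.14 (edgeR adjusted p = 0.00165), and 0.67 with replicates 1 to 3 alone (edgeR adjusted p = 0.141). With the GC and length offsets it was 0.55 with an edgeR adjusted p of 0.00579, under the fold-change threshold.

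Pcdh10 and Pcdh19 also had Dorsal and Ventral libraries that did not overlap, in opposite directions, yet neither passed the test. Pcdh10, which takes part in the removal of excitatory synapses, was at 106, 120, 106, 115 and 119 CPM in Dorsal and 106, 101, 93.0, 87.0 and 66.1 CPM in the Ventral ones (log2 fold change 0.33 ± 0.13, edgeR adjusted p = 0.0567), and its sign turned with the GC and length offsets (-0.022). Pcdh19, the X-linked gene mutated in an epilepsy of girls, was at 62.0, 72.3, 61.5, 66.4 and 60.7 CPM in Dorsal and 76.2, 73.6, 95.7, 76.0 and 72.8 CPM in the Ventral ones (log2 fold change -0.28 ± 0.11, edgeR adjusted p = 0.0681). Pcdh8, or arcadlin, a protocadherin induced by neuronal activity, was second among delta-2 members per length at 7.83 CPM per kilobase. It was at 29.4, 37.9, 39.2, 30.8 and 38.2 CPM in Dorsal and 47.1, 21.8, 28.0, 26.5 and 22.6 CPM in Ventral libraries, with Ventral replicate 1 above all others (log2 fold change 0.25 ± 0.20, edgeR adjusted p = 0.354).

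Delta-1 protocadherins hold the member with the highest level per length, Pcdh9, at 22.2 CPM per kilobase. Pcdh9 was at 181, 152, 142, 155 and 149 CPM in Dorsal and 186, 134, 131, 146 and 127 CPM in Ventral libraries, and replicate 1 was the highest of each group (log2 fold change 0.10 ± 0.12, edgeR adjusted p = 0.544; -0.05 with the GC and length offsets). Pcdh7 was at 62.3, 67.6, 66.5, 69.1 and 67.1 CPM in Dorsal and 91.4, 62.6, 106, 87.6 and 77.6 CPM in Ventral libraries. Only Ventral replicate 2 lay within the Dorsal range, and the log2 fold change of -0.35 ± 0.13 did not pass the test (edgeR adjusted p = 0.0514). With the GC and length offsets it was -0.64 and called (edgeR adjusted p = 0.000975).

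Pcdh1, a delta-1 member on chromosome 18 that was named after its values were seen, was at 33.9, 113, 117, 92.3 and 99.4 CPM in Dorsal and 57.7, 74.5, 43.2, 59.9 and 56.6 CPM in Ventral libraries. Dorsal replicate 1 was the lowest library of all and the other 4 Dorsal libraries were the highest. It was just short of a call (log2 fold change 0.66 ± 0.25, edgeR adjusted p = 0.0519) and was called by DESeq2 and with DESeq2's size factors, among other alternatives.

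Pcdh11x, on the X chromosome (120290259 to 120910619), was the 1 ventral-enriched member outside the clusters. It was at 6.57, 9.99, 2.24, 5.99 and 3.29 CPM in Dorsal and 17.4, 19.4, 5.90, 10.9 and 9.42 CPM in Ventral libraries. Replicate 3 was the lowest of each group, and the groups overlapped (log2 fold change -1.14 ± 0.38, edgeR adjusted p = 0.0311). The call was lost without any one of Dorsal replicates 3, 4 or 5 or Ventral replicates 1 or 2 (edgeR adjusted p from 0.0616 to 0.0783).

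Summed over the 35 members outside the clusters, the level came to 1375 ± 37.9 CPM (SD, n = 5) dorsally and 1099 ± 83.2 CPM ventrally, and the libraries of the groups did not overlap. High genes weigh most in such a sum. The called Pcdh17 and Pcdh20 averaged 201 and 138 CPM dorsally against 119 and 69.0 CPM ventrally. Of the 29 tested members outside the clusters, 16 were higher dorsally and 13 ventrally (median log2 fold change 0.05). The alpha sum came to 15.6 ± 2.96 CPM dorsally and 24.1 ± 6.15 CPM ventrally, the beta sum 179.9 ± 24.2 and 129.5 ± 23.9 CPM, and the gamma sum 70.0 ± 3.43 and 61.8 ± 6.41 CPM. The 3 cluster sums overlapped between the groups.

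**Figure D3:**
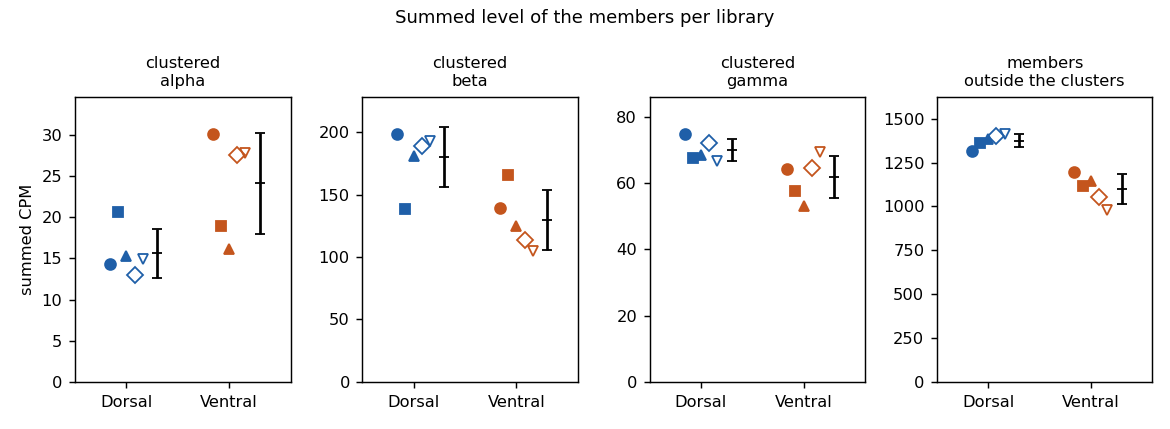
Summed CPM (vertical axes from 0, one panel per set) of the clustered alpha, beta and gamma protocadherins and of the 35 members outside the clusters, per library. Circles, squares, triangles, diamonds and inverted triangles are replicates 1 to 5, and the bars are mean ± SD of 5 libraries. Dorsal and Ventral libraries overlap in the 3 cluster panels and not in the last, where the highest genes weigh most in the sum.

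In the alpha cluster most counts fell on 1 gene. Pcdhac2, a C-type isoform that is expressed without the random promoter choice of its neighbours, held 70.1 ± 10.3% of the alpha CPM in Dorsal and 68.7 ± 3.37% in Ventral libraries, and was at 4.55 CPM per unshared kilobase. It was at 7.98, 16.0, 12.4, 8.33 and 10.7 CPM in Dorsal and 19.5, 12.7, 11.7, 18.6 and 20.03 CPM in Ventral libraries, with overlap (log2 fold change -0.60 ± 0.23, edgeR adjusted p = 0.0569). The call turned on single libraries: without Dorsal replicate 2 the log2 fold change was -0.77 (edgeR adjusted p = 0.0199), without Ventral replicate 2 -0.67 (0.0392) and without Ventral replicate 3 -0.69 (0.0315).

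Pcdha2 was the 1 called alpha member and was ventral-enriched. It had 1, 0, 2, 4 and 1 counts in Dorsal replicates 1 to 5, at or near the floor, and 46, 4, 4, 46 and 53 counts in Ventral replicates 1 to 5. All Ventral libraries were above all Dorsal ones in CPM, but Ventral replicates 2 and 3 were at 0.351 and 0.337 CPM while Ventral replicates 1, 4 and 5 were at 2.55, 2.90 and 2.497 CPM. Summed over libraries, 153 Ventral against 8 Dorsal counts gave a rate 17.1 times as high (95% interval 8.48 to 40.4, exact and for counting error only). It exceeded 1 CPM in Ventral libraries only, through which it passed the filter. The edgeR adjusted p was 0.00262, and with replicates 1 to 3 alone the gene did not pass the filter. Pcdha5, next per length at 0.447 CPM per unshared kilobase, was at 0.476 to 1.502 CPM in Dorsal and 0.264 to 1.66 CPM in the Ventral ones (log2 fold change -0.21 ± 0.49, edgeR adjusted p = 0.771). Of the 14 alpha members 7 did not pass the filter: Pcdha1, Pcdha4, Pcdha6, Pcdha7, Pcdha8, Pcdha12 and the second of the 2 Ensembl genes with the symbol Pcdha11.

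**Figure D4:**
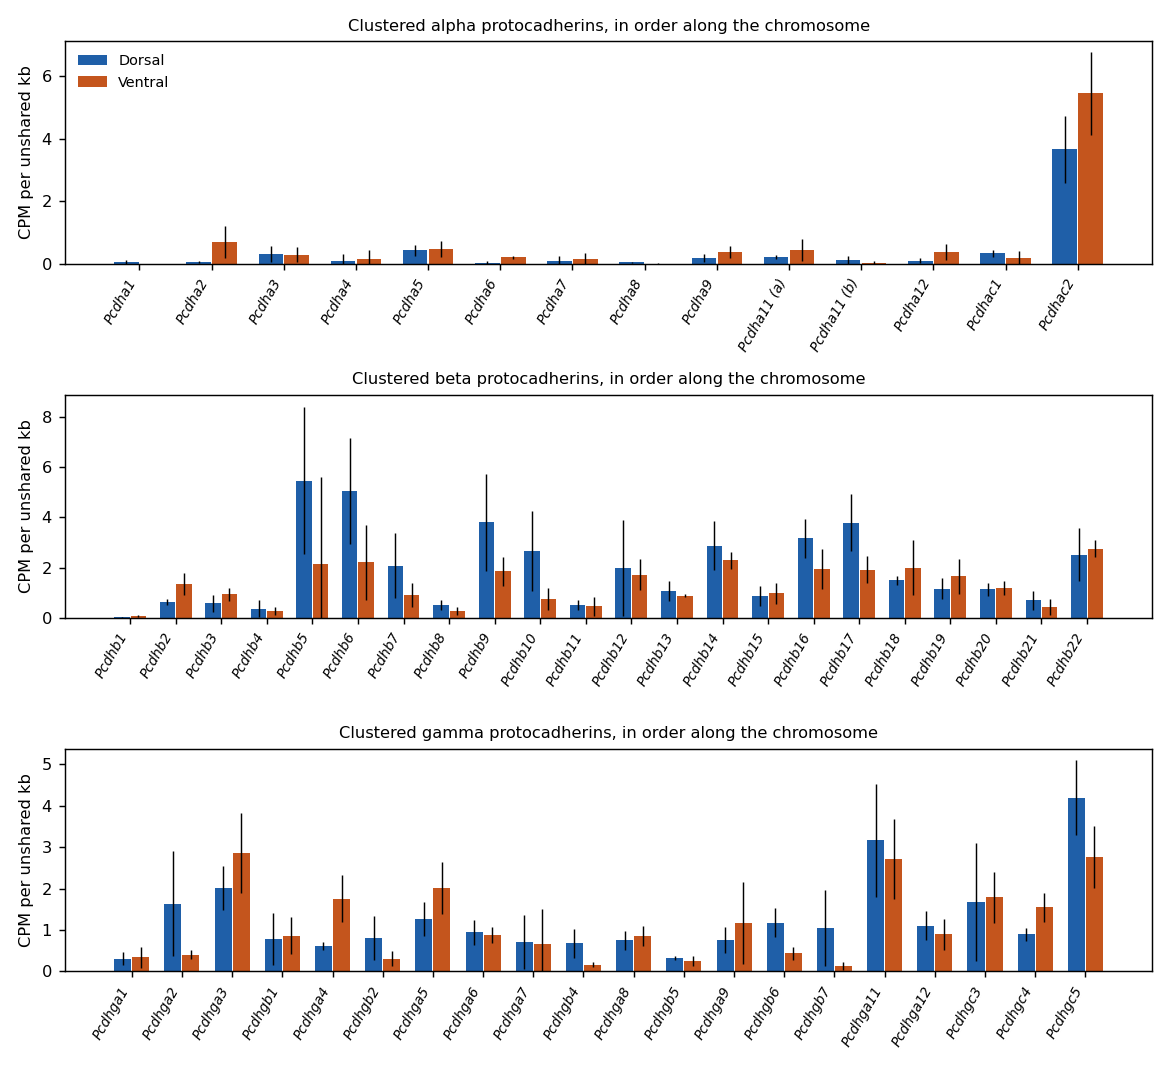
Level in CPM per unshared kilobase (vertical axes from 0, mean with SD of 5 libraries, lower bars clipped at 0) of each alpha, beta and gamma protocadherin in chromosome order, Dorsal in blue and Ventral in orange. Pcdhac2 stands above all other alpha members, Pcdhb5 and Pcdhb6 have the highest Dorsal levels of the beta members with wide bars, and Pcdhgc5 leads the gamma members. Pcdha11 (a) and (b) are separate Ensembl genes, and Pcdhga10 is left out as it has no unshared base.

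The beta cluster was spread over more members than the alpha cluster, and levels of the leading members differed widely among libraries of a group. Pcdhb5 and its neighbour Pcdhb6 were highest per length, at 3.79 and 3.64 CPM per kilobase. Pcdhb5 was at 35.03, 16.3, 7.41, 23.0 and 14.7 CPM in Dorsal and 1.55, 29.5, 3.03, 1.45 and 2.03 CPM in Ventral libraries. Ventral replicate 2 was the second highest of all libraries while the other 4 Ventral libraries were under all Dorsal ones, and the gene was not called (log2 fold change 1.59 ± 0.67, edgeR adjusted p = 0.0779). Without Ventral replicate 2 the log2 fold change was 3.27 (edgeR adjusted p = 0.000571).

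Pcdhb6 was at 30.0, 15.7, 8.98, 23.1 and 17.4 CPM in Dorsal and 3.82, 16.3, 11.97, 3.66 and 5.51 CPM in Ventral libraries. It was called dorsal-enriched, although Ventral replicates 2 and 3 lay within the Dorsal range (log2 fold change 1.32 ± 0.40, edgeR adjusted p = 0.0211). The call was lost without any one of Dorsal replicate 4 or Ventral replicates 1, 4 or 5 (edgeR adjusted p from 0.0508 to 0.0598), and with the replicate block (0.0526). Deviations of Pcdhb5 and Pcdhb6 from their group means, on the scale of log2(CPM + 0.5), had r = 0.87 over the 10 libraries, a pair chosen after its values were seen. The median over the 20 pairs of tested beta genes adjacent on the chromosome was 0.10, and over the 190 other pairs -0.05. These points share library, depth and paralogous sequence.

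The other called beta members were lower. Pcdhb10 was at 3.85, 2.01, 13.1, 8.57 and 10.2 CPM in Dorsal and 1.495, 4.22, 2.19, 1.33 and 1.32 CPM in Ventral libraries, so that Dorsal replicates 1 and 2 lay within the Ventral range (log2 fold change 1.98 ± 0.50, edgeR adjusted p = 0.00927). Pcdhb17 was at 22.4, 9.92, 14.4, 20.3 and 21.2 CPM in Dorsal and 11.1, 6.503, 12.1, 6.63 and 8.29 CPM in the Ventral ones (log2 fold change 0.96 ± 0.26, edgeR adjusted p = 0.0117). Here Dorsal replicate 2 lay under Ventral replicates 1 and 3.

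Pcdhb16 was at 12.1, 21.1, 19.3, 12.6 and 17.6 CPM in Dorsal and 7.31, 17.4, 10.1, 7.26 and 8.53 CPM in Ventral libraries, with Ventral replicate 2 again inside the Dorsal range (log2 fold change 0.78 ± 0.26, edgeR adjusted p = 0.0309). Its call was lost in 6 of the 10 fits that left out 1 library, all but those without Dorsal replicate 1 or 4 or Ventral replicate 2 or 3 (edgeR adjusted p from 0.0616 to 0.0768). It was also lost with the GC and length offsets (edgeR adjusted p = 0.0701) and with the dispersions of edgeR 3 (0.0622). In the opposite direction, Pcdhb2 was at 2.16, 1.88, 1.29, 1.62 and 1.88 CPM in Dorsal and 3.38, 1.85, 4.97, 4.67 and 4.05 CPM in Ventral libraries. Ventral replicate 2 once more lay among the Dorsal libraries (log2 fold change -1.14 ± 0.34, edgeR adjusted p = 0.0200), and the call was lost without any one of Dorsal replicates 3 or 4 or Ventral replicate 4 (edgeR adjusted p from 0.05003 to 0.0551). Pcdhb1, at most 0.332 CPM, did not pass the filter.

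**Figure D5:**
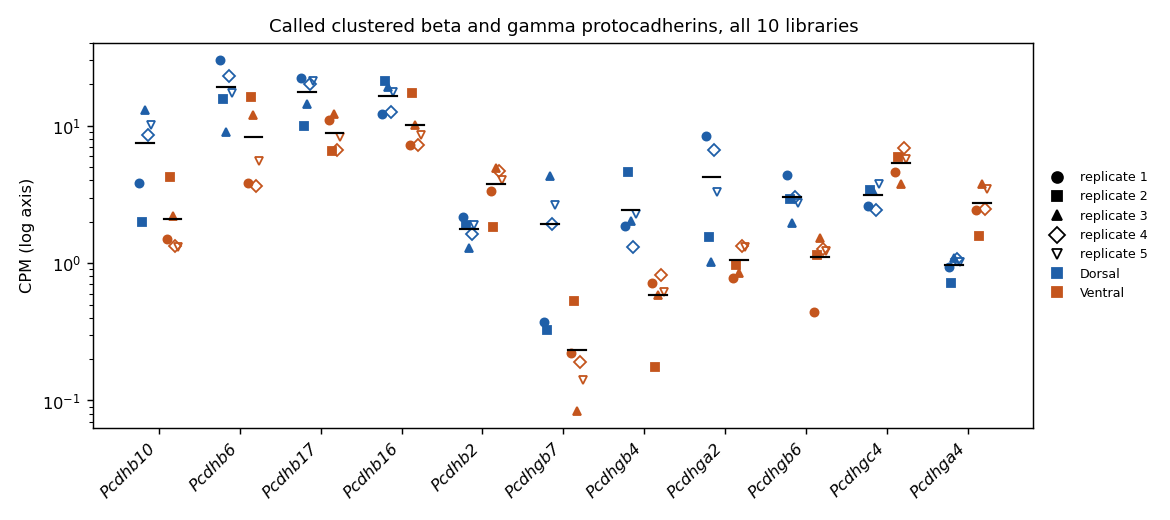
CPM on a log axis (vertical) of the 11 called beta and gamma members in each of the 10 libraries, Dorsal in blue and Ventral in orange, with black bars for the group means and open symbols for replicates 4 and 5. No called beta member separates the groups fully, and of the gamma members Pcdhgb4, Pcdhgb6, Pcdhgc4 and Pcdhga4 do.

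The gamma cluster had called members in both directions. Pcdhgc5, a C-type isoform and the highest gamma member at 3.48 CPM per unshared kilobase, was itself not called: it was at 21.0, 11.9, 20.5, 21.7 and 21.5 CPM in Dorsal and 14.8, 14.3, 6.66, 13.1 and 14.7 CPM in Ventral libraries. Dorsal replicate 2 lay under most Ventral libraries (log2 fold change 0.57 ± 0.22, edgeR adjusted p = 0.0636), and without it the log2 fold change was 0.71 (edgeR adjusted p = 0.0154). Its neighbour Pcdhgc4, the C-type isoform needed for the survival of certain interneurons, was ventral-enriched. It was at 2.63, 3.44, 3.33, 2.46 and 3.76 CPM in Dorsal and 4.597, 5.89, 3.79, 6.95 and 5.75 CPM in Ventral libraries, which touched but did not overlap (log2 fold change -0.80 ± 0.27, edgeR adjusted p = 0.0357). The summed interneuron markers given above were also higher on average in Ventral libraries, 4632 against 3875 CPM, but the libraries overlapped. Most of both sums was Gad2, which was not called (3168 CPM ventrally, 2848 CPM dorsally). The part of interneurons here was not tested. The call of Pcdhgc4 was lost without any one of Dorsal replicates 1, 3, 4 or 5 or Ventral replicates 4 or 5 (edgeR adjusted p from 0.0555 to 0.105), and when replicate numbers entered as a block (0.0561). It was also lost with the dispersions of edgeR 3 (edgeR adjusted p = 0.0548) and without the filter (0.0932).

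The other ventral-enriched gamma member was Pcdhga4, at 0.939, 0.713, 1.09, 1.08 and 1.02 CPM in Dorsal and 2.44, 1.58, 3.79, 2.46 and 3.49 CPM in Ventral libraries. All Ventral libraries were above all Dorsal ones (log2 fold change -1.52 ± 0.37, edgeR adjusted p = 0.00666), also among replicates 1 to 3, where the log2 fold change was -1.49 (edgeR adjusted p = 0.249).

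Of the dorsal-enriched gamma members, Pcdhgb4 and Pcdhgb6 separated the groups. Pcdhgb4 was at 1.88, 4.604, 2.04, 1.32 and 2.27 CPM in Dorsal and 0.720, 0.176, 0.590, 0.821 and 0.613 CPM in the Ventral ones (log2 fold change 1.99 ± 0.48, edgeR adjusted p = 0.00545), and passed the filter through Dorsal libraries only. Pcdhgb6 was at 4.41, 2.92, 1.97, 3.06 and 2.74 CPM in Dorsal and 0.443, 1.14, 1.52, 1.26 and 1.23 CPM in the Ventral ones (log2 fold change 1.44 ± 0.38, edgeR adjusted p = 0.0109). With replicates 1 to 3 alone their log2 fold changes were 2.47 and 1.66 (edgeR adjusted p = 0.109 and 0.222).

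Pcdhga2 and Pcdhgb7 owed their Dorsal means to some of the libraries. Pcdhga2 was at 8.45, 1.56, 1.02, 6.71 and 3.29 CPM in Dorsal and 0.775, 0.967, 0.843, 1.33 and 1.32 CPM in the Ventral ones (log2 fold change 1.91 ± 0.57, edgeR adjusted p = 0.0205). Without Dorsal replicate 4 it was 1.59 and not called (edgeR adjusted p = 0.0688). Pcdhgb7 had 4, 5, 63, 32 and 34 counts in Dorsal and 4, 6, 1, 3 and 3 counts in Ventral libraries, so that Dorsal replicates 1 and 2 were as low as the Ventral libraries, and only Dorsal libraries took it past the filter. Summed, 138 Dorsal against 17 Ventral counts gave a rate 9.06 times as high (95% interval 5.46 to 16.0, exact and for counting error only), with an edgeR adjusted p of 0.00305, and with replicates 1 to 3 alone the gene did not pass the filter. Pcdhga11, second per length at 2.94 CPM per unshared kilobase, was at 1.76 to 6.05 CPM over all libraries and was not called (log2 fold change 0.13 ± 0.36, edgeR adjusted p = 0.801). Between Pcdhga2 and Pcdhgb7 on the chromosome, 9 tested isoforms were not called (Pcdhga3, Pcdhga5 to Pcdhga9, Pcdhgb1, Pcdhgb2 and Pcdhgb5), with adjusted p from 0.0554 to 0.949 in edgeR. The lowest was that of Pcdhgb2 (log2 fold change 1.39 ± 0.53).

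Genes that work with the members were counted by role. Of 53 tested partners among 56 listed, 9 were called dorsal- and 2 ventral-enriched (median log2 fold change 0.12). These are 16.98% and 3.77%, against 15.7% and 9.85% of all genes. With replicates 1 to 3 alone, 1 of 52 was dorsal- and 0 were ventral-enriched in edgeR, with 0 leaning ventral at an unadjusted p below 0.05. Among 11 tested catenins and junction adaptors, Ctnnb1, the beta-catenin that binds classical cadherin tails, was ventral-enriched at 95.6 ± 16.9 against 62.4 ± 16.2 CPM (log2 fold change -0.61 ± 0.17, edgeR adjusted p = 0.0143). Nectin3, an immunoglobulin adhesion protein of the same junctions, was dorsal-enriched (log2 fold change 0.67 ± 0.14, edgeR adjusted p = 0.00273), as was Vcl, the actin linker vinculin (1.13 ± 0.32, edgeR adjusted p = 0.0172).

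Of the 10 tested regulators of the cluster promoters 0 were called by edgeR or DESeq2, and 4 had an unadjusted p below 0.05 in each. Ctcf and the cohesin subunit Rad21, which loop cluster promoters to their enhancers, had adjusted p of 0.0427 and 0.0286 with log2 fold changes of 0.41 and -0.40, under the fold-change threshold and in opposite directions. Of the 11 signalling partners, the WAVE complex and the kinases Fyn, Ptk2 and Ptk2b, 0 were called by edgeR or DESeq2, and 2 had an unadjusted p below 0.05 in edgeR and 4 in DESeq2. Of 6 proteases that process cadherins, Adam10, which sheds N-cadherin and gamma protocadherins, and Furin, which cuts the cadherin propeptide, were dorsal-enriched (log2 fold change 0.68 ± 0.18 and 0.996 ± 0.18, edgeR adjusted p = 0.0123 and 0.00131).

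Of 15 tested genes from the rest of the cadherin superfamily, 5 were dorsal-enriched and 1 ventral-enriched. Fat3, a giant atypical cadherin, was at 256.4 to 305.2 CPM in Dorsal and 83.0 to 165.7 CPM in the Ventral ones (log2 fold change 1.12 ± 0.14, edgeR adjusted p = 0.000136) and was also past the p threshold with replicates 1 to 3 alone (1.17, edgeR adjusted p = 0.0398). The 9 other called partners tested there were not called, with adjusted p from 0.135 to 0.548 in edgeR, and Fat2 was not tested. Fat4, Celsr3, Ret and Dsg2 were dorsal-enriched with log2 fold changes of 0.64, 0.69, 1.54 and 1.36. Fat2 was ventral-enriched (-2.61 ± 0.89, edgeR adjusted p = 0.0313) at 0.758 ± 0.701 CPM in Ventral and 0.122 ± 0.109 CPM in Dorsal libraries, close to the floor, and passed the filter through Ventral libraries only.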

How the data were processed

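TRAP RNA from 5 Dorsal and 5 Ventral hippocampal pools was amplified with an Ovation kit and sequenced as paired ends of 50 bp. The authors aligned the reads to GRCm38 with STAR 2.5.2b and deposited whole-number read counts per Ensembl gene from HTSeq-count 0.7.2 without normalization. The annotation release and the use of strand are not given in the sources used here, so overlapping and antisense genes are uncertain. Samples were grouped by their titles. Symbols, exonic and unshared lengths and GC content came from GENCODE M21, which matched 54723 of 54838 identifiers. Lines that name no gene were left out of library sizes.

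Genes above 1 CPM in at least 2 libraries were tested with edgeR 4.0.16 in R 4.3.3 (quasi-likelihood, TMM factors, no covariate). Calls took the study's thresholds, an adjusted p under 0.05 and a log2 fold change beyond 0.58 in either direction, but the fold change was taken here as the log2 ratio of mean CPM + 1, which understates low genes. With edgeR's own fold change 14 dorsal and 5 ventral members were called. Over all genes tested, the 2636 dorsal and 1655 ventral calls made here are more in each direction than the study reported. The reason was not tested. Standard errors are the log2 fold change over the root of F. Library shares were compared by two-sided exact permutation tests. Counts per kilobase divide mean CPM by exonic bases of no other gene. On simulated counts of 16806 genes for the dorsal against ventral design, 41% of genes changed by 1 and 79% of those changed by 2 on the log2 scale were recovered, with 11 false calls. The simulated libraries were independent, and only 100 genes were changed at each size. Here replicates 4 and 5 lay close together, and 2636 dorsal and 1655 ventral genes were called. These rates therefore need not carry over to these data.

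Members, classes, partner genes and markers were listed with earlier results of these data known. Values per library are given for every called member, every tested member whose groups do not overlap, and the 2 members of each subclass highest per length. Replicates are separate pools of mice per the study's methods, both groups come from one set of mice, and p-values measure the spread between these libraries. The alternatives were other scaling factors, filters and fold changes, DESeq2 1.42.0, the replicate block, GC and length offsets fitted with mgcv 1.9.3, protein-coding genes alone and each library left out; edgeR 3 dispersions, replicates 1 to 3 and replicates 3 to 5 alone were added after seeing the data.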

Additional observations from a re-analysis of the deposited data

Results flagged for a closer look

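Of 68 groups of 5 libraries examined (the 34 tested members named by the rule for values per library, in each of the Dorsal and Ventral groups), 11 had a highest or lowest library whose gap to its nearest neighbour exceeded Dixon's 95% critical share of the group's range in CPM. Chance flags about 1 in 20 groups of 5 independent values, but libraries 4 and 5 of a group lie close to each other. If they are not independent, that rate does not apply. Ventral replicate 2 was the highest for Pcdhb5 (29.5 CPM) and Pcdhb16 (17.4 CPM) and the lowest for Pcdh15 (2.90 CPM). Ventral replicate 3 was the highest for Pcdh17 (159 CPM) and Pcdh19 (95.7 CPM) and the lowest for Cdh2 (29.6 CPM) and Pcdhgc5 (6.66 CPM). Ventral replicate 1 was the highest for Cdh8 (112 CPM) and Pcdh8 (47.1 CPM). Among Dorsal libraries, replicate 1 was the lowest for Cdh4 (4.32 CPM) and replicate 2 the lowest for Pcdhgc5 (11.9 CPM).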

How the results depend on the processing

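With replicates 1 to 3 alone every class count of calls was 0 by edgeR, where 113 dorsal and 49 ventral of all genes were called. Replicates 3 to 5 alone gave 8 ventral members in all, 1 ventral classical, 2 dorsal delta, 2 ventral alpha and 7 dorsal beta members. Leaving out 1 library at a time gave 11 to 17 dorsal and 2 to 7 ventral members, with 0 to 2 ventral classical, 1 to 2 dorsal and 0 to 1 ventral delta, 1 to 2 ventral alpha, 2 to 5 dorsal and 0 to 1 ventral beta, and 1 to 2 ventral gamma members. Dorsal delta members were 2 (Pcdh1 as the added gene, named after its values were seen) with DESeq2's size factors, upper-quartile factors, no filter, the stricter filter, DESeq2 and protein-coding genes alone. Without the filter 7 beta members were dorsal and 1 gamma member was ventral, and with the stricter filter 0 alpha members were ventral, as fewer genes were tested. Ventral gamma members were 1 with edgeR 3 dispersions. GC and length offsets gave 2 ventral delta members and 1 ventral gamma member, and with the block added 2 ventral classical, 2 ventral delta and 1 ventral gamma members. The replicate block alone gave 15 dorsal and 5 ventral members, 1 ventral classical and 1 ventral gamma member. Both groups come from one set of mice, and whether equal numbers share mice is not given in the sources used here. Deviations of same-numbered Dorsal and Ventral libraries correlated at -0.027 to 0.055, and 4 of 10 libraries were closest to their own number. Of the 19 called members, 19 were called with DESeq2 and 14 to 19 without 1 library. The sign turned for Cdh2 (-0.10 with offsets, -0.090 with block and offsets, -0.016 without Ventral replicate 3, up to 0.095 without another library), Pcdh9 (-0.051 and -0.037 with offsets, without and with the block), Pcdh10 (-0.022 and -0.014 likewise), Pcdha5 (0.0080 without Ventral replicate 1, down to -0.39 without another), Pcdhga11 (-0.11 without Dorsal replicate 4, up to 0.32 without another) and Cdh13 (0.031 with replicates 1 to 3 alone), none of them called in either fit. The ambiguous share differed by -1.24 percentage points, from -1.58 to -0.98 without 1 library (p above 0.05 in 7 of 10 such tests), and by -0.11 of read pairs on genes plus ambiguous. The cause of these changes was not tested. Depth limits most alpha members, whose counts reach the floor of 3 counts in some libraries.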
